A study of Homo sapiens with 4 samples.

Results

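The genes described here are those of mitosis and the spindle checkpoint: CDK1, its cyclins and the enzymes that switch it on and off, the mitotic kinases, the checkpoint proteins, and components of centromeres, kinetochores, spindle motors, condensin and the cytokinetic machinery. Of 44 genes named for these roles, 31 had at least 1 peak in the list of RNA regions recovered with PRMT5, and they held 83 of its 18993 peaks, while the whole list covered 8490 genes. A gene was included through the symbol of its peaks' gene identifier, taken from the study's supplementary peak table for 4 members, from a GRCh38 gene on the same strand for 25 members, and, for WEE1 and BUB3, from a GRCh38 gene whose strand the reference tables used here do not list. Matching of symbols did not use the level of a peak, but a gene had to have a called peak to be included. The authors' peak caller gave 81 of the 83 peaks a false discovery rate (FDR) at or below 0.01, so RIP over input entered through the call. The other genes of the list were included through the same call. A value above input is therefore no independent result, for the members or for the list.

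The libraries came from Jurkat cells, a human leukaemic T cell line in long-term culture. The labels give 2 libraries of RNA precipitated with PRMT5 (RIP) and 2 libraries of input RNA, and no other treatment or genotype separates the groups. All 4 libraries carry the same labels for stimulation with PHA, a lectin that activates T cells, over 48 hours, and for crosslinking by UV light, given as 264 nm and 400 mJ; the study's methods state another wavelength. The precipitation was made through FLAG, the labels do not say how the tag was joined to PRMT5, and a library from cells without the tag or from a control antibody was not analysed here. Both libraries of a kind were pooled in the deposited list, which gives each peak 1 value of reads scaled to library size (RPM) for RIP and 1 for input. The spread between replicates is therefore unknown, no test was possible, and every difference below is a description. Read depth per library is unknown as well. RPM summed over all peaks to 755969 in RIP and 489424 in input, and most genes of the list were above input. Of 8 T cell markers, CD3D, CD3E, CD3G, CD247, LCK, ZAP70, LAT and CD28, all 8 had a peak, with 11.7 to 417.1 RPM in input. A peak was found for 1 of 4 B cell markers (CD79A, 37.3 RPM in input) and 1 of 4 myeloid markers (CSF1R, 29.5 RPM in input).

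PRMT5 transfers methyl groups to arginine residues of histones, Sm proteins of the spliceosome and other RNA-binding proteins, and RIP asks which RNAs are recovered with it. In dividing cells, CDK1 bound to cyclin A or B starts mitosis once CDC25 phosphatases have removed the phosphates that WEE1 adds. Aurora and Polo-like kinases then build the spindle and correct the attachment of chromosomes. The spindle checkpoint holds CDC20 and the anaphase-promoting complex in check until every kinetochore is attached. Degradation of securin and cyclin B then releases separase, and the chromosomes part. Many of these genes are transcribed late in the cell cycle through a short promoter element, the cell cycle genes homology region (CHR), which the DREAM and MuvB complexes bind.

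As background on these promoters, the 100 bases just before the start of the gene are shown for 4 members that have a CHR hexamer. These bases lie before the RefSeq start, and a link between them and the peaks at gene starts described below was not tested. The windows are from the RefSeq promoter table of GRCh38.p14 and run 5′ to 3′ on the strand of the gene, with the hexamer in capitals (TTTGAA, or TTCAAA where it lies on the other strand). They are chr16:23678789-23678888, plus strand, for PLK1; chr15:59105046-59105145, plus strand, for CCNB2; chr2:26785956-26786055, plus strand, for CENPA; and chr10:92593030-92593129, plus strand, for KIF11.
PLK1: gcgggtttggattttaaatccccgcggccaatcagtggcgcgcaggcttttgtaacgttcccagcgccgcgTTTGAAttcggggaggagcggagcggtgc
CCNB2: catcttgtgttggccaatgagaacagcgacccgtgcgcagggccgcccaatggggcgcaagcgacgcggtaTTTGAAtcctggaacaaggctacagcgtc
CENPA: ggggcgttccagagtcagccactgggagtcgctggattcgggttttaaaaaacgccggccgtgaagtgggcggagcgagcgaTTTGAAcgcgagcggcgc
KIF11: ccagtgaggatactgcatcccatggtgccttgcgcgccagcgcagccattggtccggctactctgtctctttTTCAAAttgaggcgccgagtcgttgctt

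In these windows the first base of the hexamer lay 29 bases before the start in PLK1 and CCNB2, 18 bases before it in CENPA and 28 bases before it in KIF11. Of the 44 genes, 38 matched the promoter table; TTK, BIRC5, TPX2, AURKA, WEE1 and BUB3 did not. TTTGAA or TTCGAA on either strand stood in the last 100 bases before the start in 16 of the 38 (42.1%), against 3.67% of 15843 protein-coding genes, and in the last 250 bases in 20 of the 38 (52.6%), against 12.0%. CCAAT, the motif of the factor NF-Y, stood on either strand in the last 100 bases in 21 of the 38 (55.3%), against 21.0%. A hexamer and CCAAT can share no more than an end base. RIP reads RNA and measures nothing at a promoter, and a match to these letters is not evidence of binding. Among the 26 matched members with a peak, the 12 with a hexamer in the last 100 bases had a median gene log2 ratio of RIP over input of 1.33 (0.33 to 2.23), and the 14 without had 1.19 (−0.15 to 2.29), so the ranges lay over each other.

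The mitotic genes as a group were recovered with PRMT5 about as much as the other genes of the list. For each gene, RPM was summed over its peaks, and the log2 ratio of RIP over input was taken with 0.01 RPM added to both sums. The 31 members had a median gene log2 ratio of 1.29 (quartiles 0.75 and 1.61, range −0.15 to 2.40), against 1.20 over all 8490 genes. At a gene log2 ratio of 1 or more, which is 2-fold above input, stood 20 of the 31 members (64.5%), beside a background of 62.3% (5290 of 8490 genes). Less RPM in RIP than in input was summed for 1 member, PTTG1, and for 188 of all genes.

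How far a gene stood above input went with its input. With the genes in 10 classes of equal size by summed input RPM, the median gene log2 ratio went from 1.87 in the class with the lowest input to 0.65 in the class with the highest. Members had a median summed input of 3.32 RPM, against 2.28 RPM for all genes, so each member was also set against the median of all genes in its own class, called genes of like input here. The median of those differences was 0.02 on the log2 scale, with 16 members above their class median and 15 below. It was −0.12 where the median over a gene's peaks replaced the sum. Weighted to the members' classes, 58.3% of all genes were at least 2-fold above input. Across the 31 members the gene log2 ratio went down as log2 summed input went up, with a Pearson's r of −0.72 and a Spearman's rho of −0.71, and over all 8490 genes these were −0.52 and −0.55. Input enters both axes and all genes come from the same libraries, so these values describe the list and are no test.

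**Figure D1:**
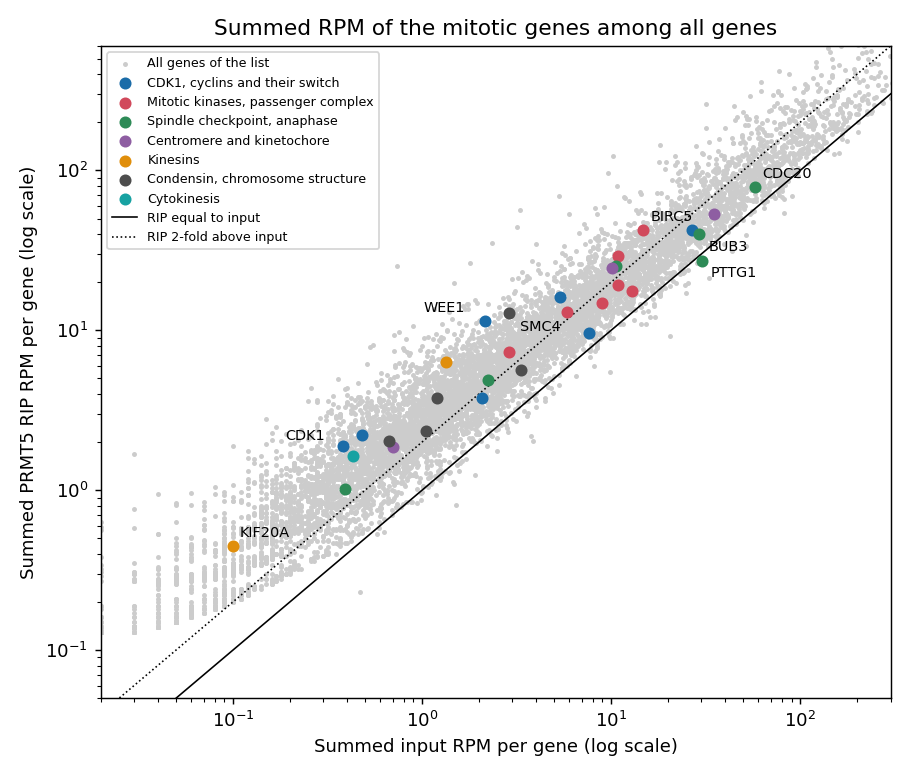
Summed RPM per gene in PRMT5 RIP (vertical, log scale) against input (horizontal, log scale), 1 point per gene, with all genes of the list in grey, the 31 mitotic genes coloured by role, and lines at equality and at 2-fold; genes beyond the axes are not drawn. PTTG1 is the 1 member under the line of equality (27.3 RPM in RIP, 30.2 in input), and CDC20 and BUB3 lie between the lines, while WEE1, SMC4 and CDK1 lie above the 2-fold line.

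Among CDK1, the cyclins and the enzymes that switch CDK1, 7 of 8 genes had a peak, and 4 of the 7 were at least 2-fold above input. Weighted to the input classes of the 7, 62.9% of all genes were. The median gene log2 ratio of the 7 was 1.59, with a median of 0.57 above genes of like input. WEE1, the kinase that holds CDK1 inactive, had 11.45 RPM in RIP and 2.16 RPM in input, a 5.30-fold ratio and a gene log2 ratio of 2.40, the highest of the 31. Its RPM came from a single peak of 425 nt that began at the first base of the gene (chr11:9573670-9574094). CDK1 itself had 1.90 and 0.38 RPM, a gene log2 ratio of 2.29. CDC25A, a phosphatase that activates CDK1 complexes, had 2.23 and 0.48 RPM, a gene log2 ratio of 2.19, so the kinase and a phosphatase of the switch were both at the upper end. The cyclins were spread out. CCNA2, cyclin A, had 16.13 and 5.35 RPM and a gene log2 ratio of 1.59, CCNB1, a cyclin B, had 0.66, and CCNB2, the other cyclin B of the list, had the lowest of the group at 0.33 (9.61 and 7.65 RPM). CCNB2 was 0.69 below genes of like input, whereas CCNA2 was 0.57 above them. CDC25B, a further phosphatase of CDK1, had 3.77 and 2.08 RPM, a gene log2 ratio of 0.85, and CDC25C had no peak.

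All 7 of the mitotic kinases and members of the chromosomal passenger complex had a peak, with a median gene log2 ratio of 1.15 and 4 of the 7 at least 2-fold above input. Weighted to the input classes of the 7, 46.5% of all genes were at least 2-fold above input. The passenger complex, in which AURKB is the kinase and INCENP, survivin and borealin place and activate it, held both high and low members. BIRC5, which encodes survivin, had 42.23 RPM in RIP and 14.80 RPM in input, a gene log2 ratio of 1.51. AURKB had 19.17 and 10.81 RPM, a gene log2 ratio of 0.83, and INCENP had 14.81 and 8.90 RPM, a ratio of 0.73. CDCA8, which encodes borealin, had the lowest of the 7 at 0.44 (17.59 and 12.94 RPM). Against genes of like input, BIRC5 was 0.59 above, AURKB 0.09 below, INCENP 0.18 below and CDCA8 0.48 below. PLK1, the Polo-like kinase of centrosomes and kinetochores, had 29.01 and 10.93 RPM, a gene log2 ratio of 1.41. AURKA, the kinase of spindle poles, had 7.33 and 2.87 RPM, a gene log2 ratio of 1.35, and its activator TPX2 had 12.98 and 5.86 RPM, a ratio of 1.15. AURKA and PLK1 were thus both above 2-fold, as was TPX2.

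The spindle checkpoint and anaphase genes had the lowest median of the 7 role groups, 0.79, with 6 of 9 genes having a peak, 3 of the 6 at least 2-fold above input and 5 of the 6 below genes of like input. Weighted to the input classes of the 6, 47.7% of all genes were at least 2-fold above input. PTTG1, which encodes securin, the inhibitor of separase, had 27.29 RPM in RIP and 30.24 RPM in input, a 0.902-fold ratio and a gene log2 ratio of −0.15, which was 0.94 below genes of like input. PTTG1 has near-identical copies elsewhere in the genome that can share its reads, so its values are uncertain. CDC20, the activator of the anaphase-promoting complex, had 78.77 and 57.46 RPM, a 1.37-fold ratio and a gene log2 ratio of 0.46. BUB3, a partner of the checkpoint kinases, had 39.79 and 29.21 RPM, a ratio of 0.45. The other checkpoint genes with a peak were above 2-fold. BUB1B, which encodes the inhibitor BUBR1, had the highest of the group at 1.36 (1.02 and 0.39 RPM), MAD1L1, which recruits MAD2 to kinetochores, had 1.26, and MAD2L1, which encodes the MAD2 that captures CDC20, had 1.13 (4.87 and 2.22 RPM). MAD1L1 was the 1 gene of this group above genes of like input, by 0.34, and its value rested on wide regions: 1 peak of 332967 nt gave 18.07 of its 25.25 RPM in RIP, was assigned 3 gene identifiers and had a peak caller FDR of 0.0564. BUB1, TTK and ESPL1, which encodes separase, had no peak.

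Of the centromere and kinetochore genes, 3 of 6 had a peak, and 2 of the 3 were at least 2-fold above input, beside 52.3% of all genes weighted to their input classes. NUF2, a subunit of the microtubule-binding NDC80 complex, had 1.85 RPM in RIP and 0.70 RPM in input, a gene log2 ratio of 1.39. CENPA, the histone variant of centromeres, had 24.61 and 10.09 RPM, a ratio of 1.29, and was 0.37 above genes of like input. CENPB, which binds centromeric satellite DNA, was the lowest of the 3 at 0.60 (53.03 and 34.97 RPM), and both CENPB and NUF2 were below genes of like input. CENPE, CENPF and NDC80 had no peak.

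Of the kinesins, 2 of 5 had a peak and both were at a gene log2 ratio over 2. At least 2-fold above input were 82.98% of all genes weighted to their input classes. KIF11, the motor that pushes spindle poles apart, had 6.34 RPM in RIP and 1.34 RPM in input, a gene log2 ratio of 2.23 that was 0.97 above genes of like input, from a single peak of 300 nt beginning 14 nt inside the gene. KIF20A, a motor of the central spindle, had 0.45 and 0.10 RPM, a gene log2 ratio of 2.06, close to genes of like input (0.19 above). With 0.10 RPM in input and values rounded to 0.01 RPM, KIF20A had the lowest input of the 31. KIF23, KIF2C and KIF4A had no peak.

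Of the genes of condensin, which folds mitotic chromosomes, and of chromosome structure, 5 of 6 had a peak, and 4 of the 5 were at least 2-fold above input, beside 70.1% of all genes weighted to their input classes. Their median gene log2 ratio was 1.59, with a median of 0.02 above genes of like input. SMC4, a core ATPase of condensin, had 12.83 RPM in RIP and 2.89 RPM in input, a gene log2 ratio of 2.15 that was 1.03 above genes of like input. NCAPG and NCAPH, subunits of condensin I, had gene log2 ratios of 1.64 (3.75 and 1.20 RPM) and 1.59 (2.04 and 0.67 RPM), which were 0.26 and 0.02 above genes of like input, and NCAPD2 had no peak. MKI67, the Ki-67 protein that coats mitotic chromosomes, had 1.14 (2.33 and 1.05 RPM). TOP2A, the topoisomerase that untangles sister chromatids, was the lowest of these 5 genes at 0.77 (5.66 and 3.32 RPM) and 0.35 below genes of like input. Of the 3 cytokinesis genes, PRC1, which bundles microtubules at the central spindle, had 1.64 and 0.43 RPM, a gene log2 ratio of 1.91, while ANLN and ECT2 had no peak. The PRC1 peak overlapped 2 peaks assigned to a gene on the opposite strand (ENSG00000258725.2), and how reads were assigned to strands is not given in the sources used here.

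**Figure D2:**
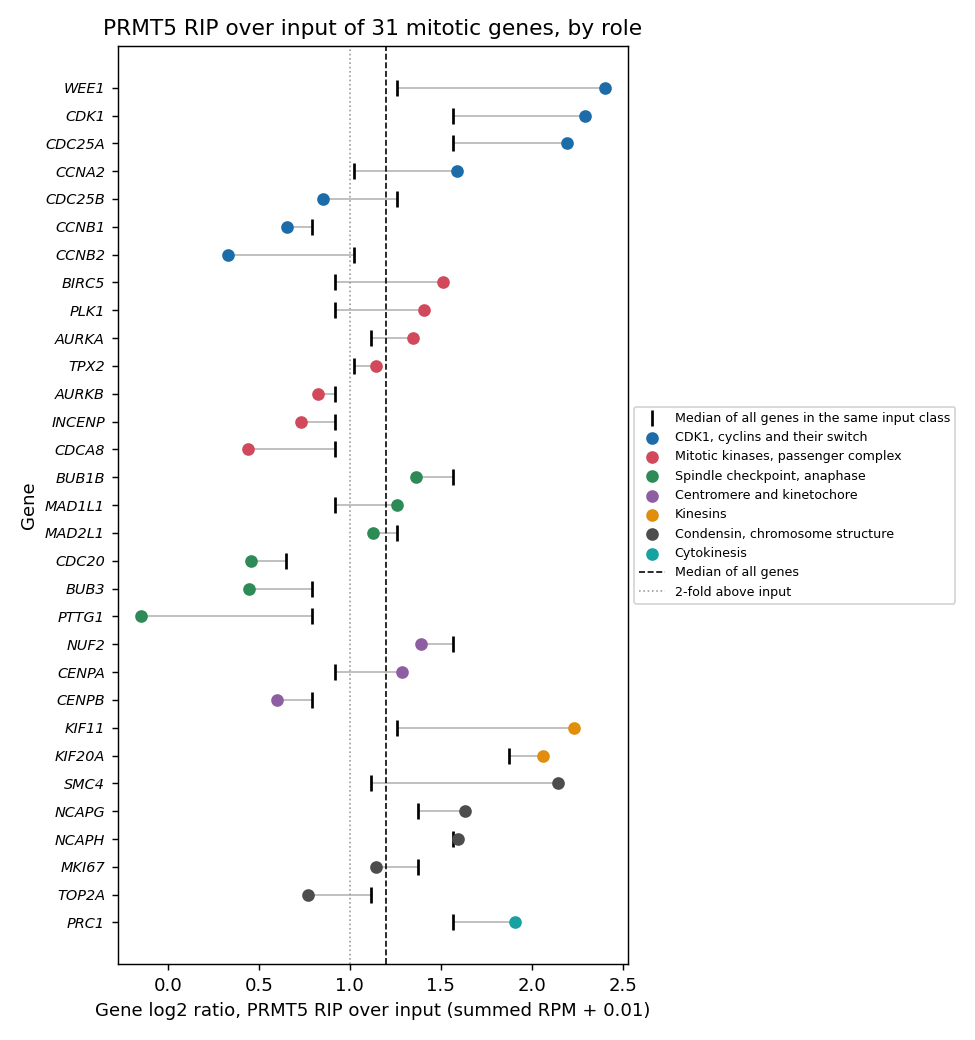
Gene log2 ratio of PRMT5 RIP over input (horizontal axis) for the 31 mitotic genes (vertical axis), 1 point per gene from pooled libraries, coloured and ordered by role, with a black tick at the median of all genes in the same input class and vertical lines at the median of all 8490 genes (1.20) and at 2-fold. WEE1 (2.40) and SMC4 (2.15) stand furthest to the right of their ticks, and PTTG1 (−0.15) furthest to the left.

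At the upper end, 6 of the 31 members had a gene log2 ratio of 2 or more (WEE1, CDK1, KIF11, CDC25A, SMC4 and KIF20A), and 15.3% of all genes did. Of these 6, CDK1, CDC25A and KIF20A had less than 0.5 RPM in input. At the lower end, 11 members were below 2-fold, of which 9 had more than 5 RPM in input. The 13 genes without a peak were not touched by a peak of either strand. The list holds called regions only, so the lack of a peak gives no level in either kind of library.

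Other genes of mitosis, on a list of 115 symbols, were in the same range, and genes of DNA replication had a lower median but a higher input. Of the 115, 75 had a peak, 42 of the 75 (56.0%) were at least 2-fold above input, beside 59.9% of all genes weighted to their input classes, and their median gene log2 ratio was 1.06, with a median of 0.07 below genes of like input. The condensin and cohesin genes of that list had the highest median, 1.52, with 10 of 12 at least 2-fold above input. The subunits and partners of the anaphase-promoting complex had 1.01 (9 of 18 at least 2-fold), the other kinetochore genes 1.02 (9 of 15), spindle and motor genes 0.99 (9 of 20) and other mitotic kinases and regulators 0.99 (5 of 10). Weighted to the input classes of these groups, in the order named, 65.8%, 60.2%, 59.6%, 58.3% and 55.7% of all genes were at least 2-fold above input. With at least 1 RPM in input, PDS5A, a cohesin regulator (2.67), TOP2B, a topoisomerase (2.54), and MIS18A, which helps to load CENPA (2.16), had the highest gene log2 ratios, and the spindle gene SPAG5 (−0.11), HAUS4 (0.06) of the augmin complex and ANAPC16 (0.12) of the anaphase-promoting complex the lowest. For DNA replication, 37 of 54 genes had a peak, 11 of the 37 (29.7%) were at least 2-fold above input, and the median was 0.84. The replication genes had a median input of 7.90 RPM. Weighted to their input classes, 51.2% of all genes were at least 2-fold above input, so the 29.7% was also lower than among genes of like input. Their median was 0.10 below genes of like input, with 26 of the 37 below and 11 above. For the other mitotic genes the median was 0.07 below, with 44 of the 75 below and 30 above. These lists were compared by counts and medians alone.

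Most members had a peak at the start of the gene. Of the 31, 25 (80.6%) had a peak that began within 100 nt of the RefSeq start of the gene, beside 56.2% of 6520 named protein-coding genes (3667 genes) and 60.6% when those genes were weighted to the members' input classes. The distance of 100 nt was chosen after the data were seen. At 50 nt the shares were 64.5% and 46.5%, at 250 nt 83.9% and 67.0%, and at 500 nt 87.1% and 71.6%. The other mitotic genes (49 of 75, 65.3%) and the DNA replication genes (24 of 37, 64.9%) lay between. The median distance from the gene start to the 5′-most peak was 25 nt for the members, 48 nt for the other mitotic genes, 25 nt for the DNA replication genes and 69.5 nt for the 6520 genes. The DNA replication genes were also close to the members at 50 nt, with 62.2%. Median gene lengths were 19165 nt for the members and 23929 nt for the 6520 genes. In 11 of the 25 genes the peak began at the first base of the gene or before it. That was 35.5% of the 31 members, beside 20.1% of the 6520 genes. These counts were not tested, and the exon structure of the peaks was not analysed here.

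**Figure D3:**
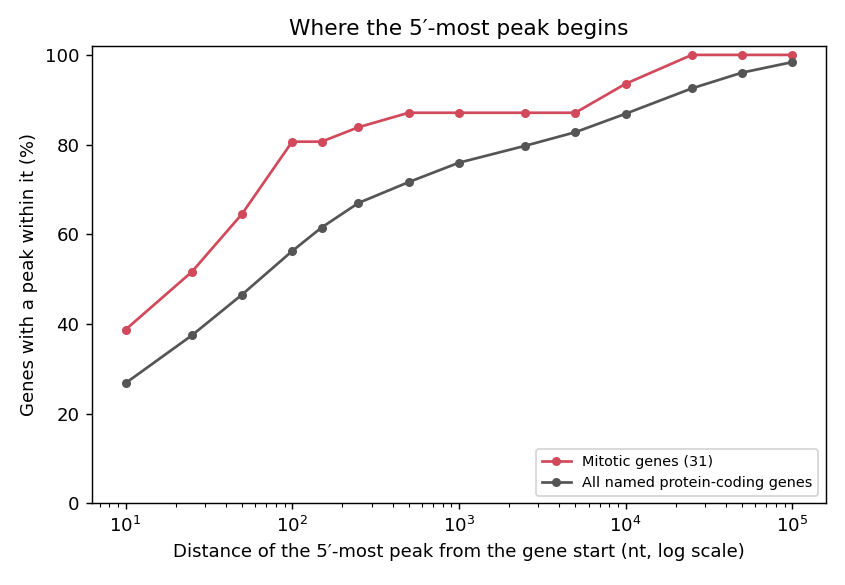
Share of genes (vertical axis, percent) whose 5′-most peak began within the distance from the gene start on the horizontal axis (nt, log scale), for the 31 mitotic genes and the 6520 named protein-coding genes. At 100 nt the curves stand at 80.6% and 56.2%, and the mitotic genes stay above up to the longest distances drawn.

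Where a member had 1 peak, that peak mostly began within 100 nt of the gene start. Of 11 such members, 10 had it within 100 nt (WEE1, KIF11, KIF20A, CCNA2, CCNB2, BUB1B, BUB3, MAD2L1, NUF2 and NCAPG), beside 49.8% of the 2530 named protein-coding genes with 1 peak. The exception was PRC1, whose peak began 13635 nt from the start. At 50 nt it was 7 of the 11 (63.6%), beside 40% of the named protein-coding genes with 1 peak. Among genes with 1 peak, the other mitotic genes had 57.7% at 50 nt and 61.5% at 100 nt. The DNA replication genes with 1 peak had 50% and 62.5%. The other 5 members without a start peak were CDK1 (173 nt from the start), CENPB (265 nt), NCAPH (8430 nt), CDC25B (9672 nt) and MAD1L1 (10335 nt). At the other end of the genes, 1 member (3.23%), PTTG1, had a peak that reached within 100 nt of the gene end, beside 9.97% of the named protein-coding genes.

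**Figure D4:**
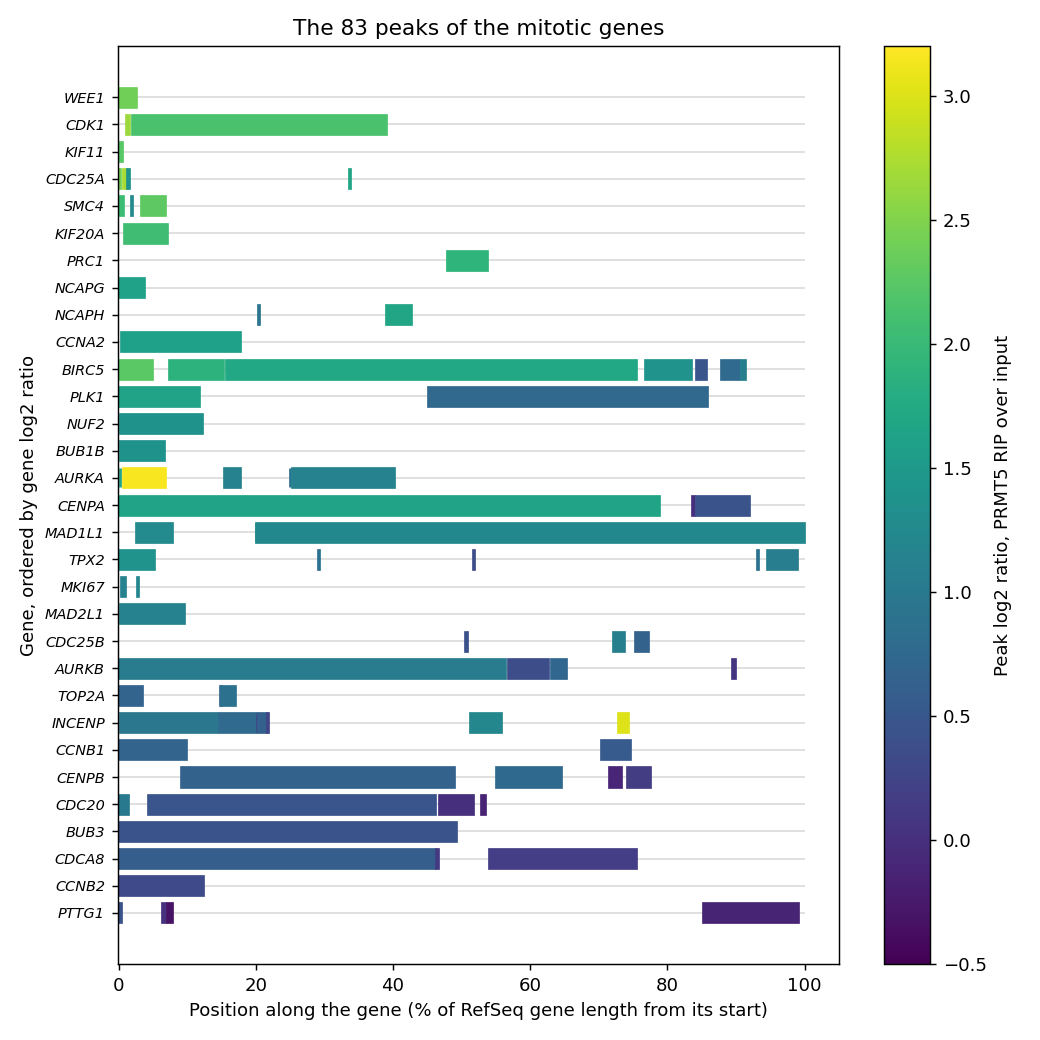
The 83 peaks of the 31 mitotic genes, placed along each gene as a percentage of its RefSeq length from the start (horizontal axis) and coloured by the peak's log2 ratio of RIP over input, with genes ordered from the highest gene log2 ratio (WEE1, top) to the lowest (PTTG1, bottom); the narrowest peaks are drawn wider than scale so that they can be seen. Blocks gather at the left edge in 25 genes, and the first block of CENPB, NCAPH, PRC1 and CDC25B lies further in.

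BIRC5 had 7 peaks along the gene. The first, 8 nt inside the gene (chr17:78214261-78214812, 552 nt), had 18.9 RPM in RIP and 3.97 RPM in input, a peak log2 ratio of 2.25. The other 6 had peak log2 ratios of 1.87, 1.72, 1.40, 0.47, 0.77 and 1.08 in order along the gene. The start peak held 44.8% of the RIP RPM of BIRC5 and 26.8% of its input RPM. PLK1 had 2 peaks, with 23.04 and 7.34 RPM at the start (ratio 1.65) and 5.97 and 3.59 RPM 5171 nt further in (0.73). The second PLK1 peak overlapped a peak of the opposite strand (ENSG00000261266.2, 4.62 and 2.32 RPM). CENPA had 19.71 and 6.28 RPM in its start peak of 6724 nt (1.65), 0.85 and 0.85 RPM in the next (0.00), and 4.05 and 2.96 RPM in the last (0.45). In all of these genes the peak that began at the start had the highest ratio. In CENPA that peak spanned 6724 of the gene's 8534 nt, so its ratio is not confined to the start.

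Other genes with several peaks differed. AURKA had 5 peaks, of which the first, of 25 nt, held 0.18 and 0.05 RPM (1.66), and the second, 136 nt inside the gene (chr20:56390653-56392079), held 1.25 and 0.13 RPM, the highest peak log2 ratio of the 83 at 3.17. The last AURKA peak held most of its RPM, with 5.20 and 2.36 (1.14). INCENP had 7 peaks with log2 ratios of 0.97, 0.76, 0.29, 0.63, 0.24, 1.21 and 3.0 along the gene, so the last was the highest, on 0.47 and 0.05 RPM. TPX2 had 5 peaks with ratios of 1.40, 0.88, 0.36, 0.87 and 1.06, and the first and the last held most of its RPM. SMC4 was high along its first part, with 2.03 at the start, 1.26 in the next peak and 2.28 in the last. PTTG1 was low throughout, with 0.44, 0.03, −0.32 and −0.13, and its peak at −0.32 (4.62 and 5.77 RPM) was the lowest of the 83. CDC20 had 1.00 in the peak at its start and 0.46 in the next, which held 72.75 of its 78.77 RPM in RIP.

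Counted over the members, the first peak was not more often the higher one than in other genes. Of 20 members with 2 peaks or more, 14 (70.0%) had a higher peak log2 ratio in the 5′-most than in the 3′-most peak, beside a background of 71.3% (2845 of 3990 genes), and the median difference was 0.46, against 0.44. Against all other peaks of the gene summed, the first was higher in 15 of 20 (75.0%), beside 74.1%. The differences of the first peak to the rest were 1.29 in CENPA, 1.14 in BIRC5, 0.92 in PLK1, 0.60 in PTTG1, 0.56 in CDC20 and 0.55 in AURKB. They were negative in NCAPH (−0.74), CDC25B (−0.57), TOP2A (−0.18), SMC4 (−0.16) and MKI67 (−0.07). In the 15 of these genes with a peak at the start, the start peak held between 1.76% and 85.3% of the gene's RIP RPM, with a median of 44.8%, and its share of RIP was larger than its share of input in 12 of the 15. Put as ratios, this is the same comparison: the start peak was above the rest summed in 12 of the 15 (80.0%). The background was 79.9% (1925 of 2408 named protein-coding genes with 2 peaks or more, the first at the start).

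**Figure D5:**
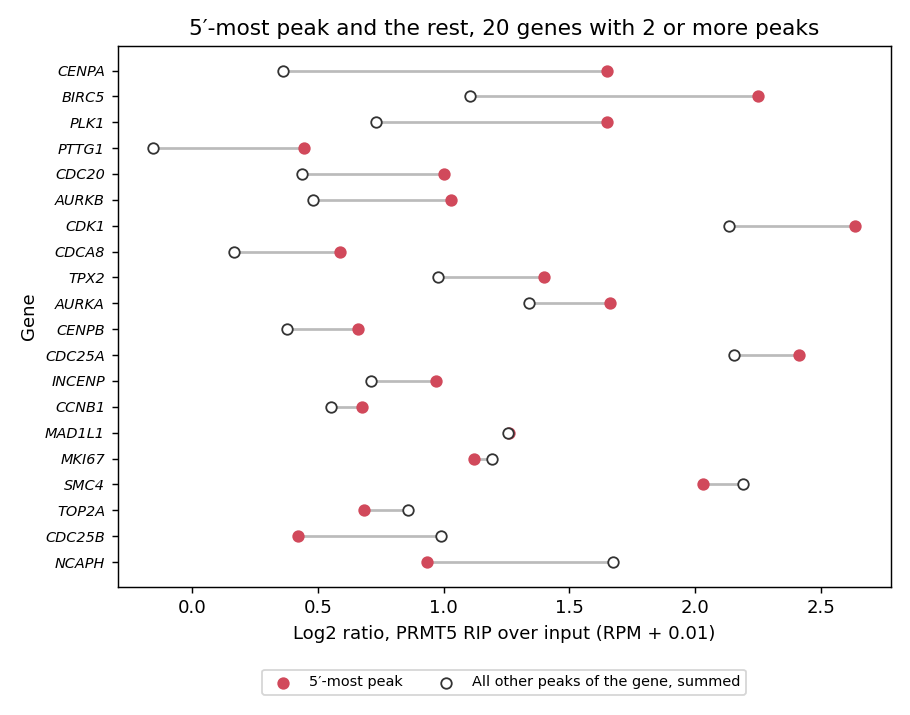
Log2 ratio of PRMT5 RIP over input (horizontal axis) of the 5′-most peak (filled) and of all other peaks summed (open) in the 20 mitotic genes with 2 or more peaks (vertical axis), ordered by the difference. The filled point lies to the right in 15 genes, furthest in CENPA and BIRC5, and to the left in 5, furthest in NCAPH; the points of MAD1L1 nearly coincide.

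The members' peaks had a larger median width than those of the list and rarely lay opposite another peak. Their median width was 414 nt, beside 275 nt for the whole list, and 15 of the 83 (18.1%) were 25 nt wide, against 15.0%. More than 5000 nt was spanned by 7 of the 83, a smaller share than the 2670 of all 18993 peaks. A single block described even wide peaks, so introns may lie within them. The median peak log2 ratio was 1.00, against 1.10, and 42 peaks (50.6%) were at least 2-fold above input, against 55.7% of all peaks. RPM was lower in RIP than in input in 4 peaks (4.82%), against 3.84%. The peak caller's log2FC, whose scaling is not given in the sources used here, was missing for 1 peak of MAD1L1. It was above 0 in all others, with a lowest value of 0.41 and a median of 1.84, against 1.95. It exceeded the log2 ratio of the RPM values by a median of 0.80, so the sign of a weak peak such as those of PTTG1 differs between the measures. Of the 83, 81 had an FDR at or below 0.01 and 1 had none listed. Only 2 peaks (2.41%) overlapped a peak of the opposite strand, against 18.1% of all peaks. All peaks include those of unnamed and noncoding genes, and a share for named protein-coding genes alone was not computed.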

How the data were processed

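For each peak, pooled over libraries, the deposited list gives coordinates, 1 or more gene identifiers, RPM in PRMT5 RIP and in input, and the log2 enrichment (log2FC) with its p-value and false discovery rate (FDR) from the authors' peak caller. The deposited RPM values are rounded to 0.01 RPM. The labels name a strand-marking kit, and the submitters' processing notes name fastp, HISAT2 and hg38. The peak caller, the annotation and the way of pooling are not given in the sources used here. Depth, and so counting error, is unknown, because whole reads were not recoverable, and a p-value for any difference reported here was not possible.

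Peaks were assigned to their first-listed identifier and positions counted from 1. Symbols came from 1999 rows of the study's supplementary peak table, and otherwise from RefSeq genes of GRCh38.p14, on the same strand where the gene's strand was known; 7288 of 8490 identifiers (85.8%) were named, and 786 of 788 named in both ways had the same name. Values per gene are log2 ratios of summed RPM with a pseudocount of 0.01. Genes of like input are those in the same of 10 classes of summed input RPM. A gene start or end is that of the RefSeq gene, and a peak within 100 nt was counted as at it. The calculation was tested on simulated data, in which a shift given to randomly chosen genes was recovered. The simulated ratios did not depend on input, unlike the real ones, so the comparison with genes of like input was not tested under that dependence. The members and lists were chosen with earlier results of these data known. Each role group's highest and lowest members, members with a gene log2 ratio below 0 or of at least 2, and members with 5 or more peaks were given in full, and of the other mitotic genes the 3 highest and 3 lowest with at least 1 RPM in input. The cell type markers were written after the data were seen. Alternatives covered the pseudocount, the summary over peaks, the caller's log2FC, filters on identifiers, width, strand overlap, FDR and input, the naming, the input classes and the distance from the start. Exons and sequence within genes were not used here. Python 3.11.15 was used with pandas 2.3.3, numpy 2.4.6 and matplotlib 3.10.9.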

Additional observations from a re-analysis of the deposited data

How the results depend on the processing

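No paired analysis was possible because the list pools the libraries of each kind, and for the same reason no replicate could be left out. The median gene log2 ratio of the mitotic genes, 1.29 as reported, was 0.86 with a pseudocount of 1 (0.75 over all genes), 1.16 as the median over a gene's peaks (1.20), 1.14 among genes with summed input of 1 RPM or more (0.99) and 2.05 by the peak caller's log2FC (2.06). The count of members at least 2-fold above input, 20, was 28 by the log2FC (94.9% of all genes), 13 with a pseudocount of 1 (30.0%) and 13 of 24 among genes with summed input of 1 RPM or more (49.3%). The median difference from genes of like input, 0.02, was −0.12 both as the median over peaks and by the log2FC, and ranged from −0.12 to 0.11 over 13 alternatives, so its sign was not settled. The count of members with the higher ratio in the 5′-most peak, 14 of 20, ranged from 10 (of 18, with peaks of at most 5000 nt) to 16 (log2FC). The share over all genes was not computed under these alternatives, so how the members compare with other genes under them is unknown. The count with a peak at the gene start, 25, ranged from 20 to 27 over distances of 50, 250 and 500 nt, which were added after the data were seen. Pooled values and unknown depth limit every comparison, most for members with little input.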
